A study of Mus musculus with 4 samples.

Results

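The 10 genes described here encode glucose transporter 1 and 9 enzymes of glycolysis and lactate production, in the mouse fetal pancreas. They were chosen by name (Slc2a1, Hk1, Hk2, Gpi1, Pfkl, Pfkp, Aldoa, Pgk1, Eno1 and Ldha) and make up 10 of the 54532 gene IDs measured. RNA sequencing was done on wild-type C57BL/6 embryos at 4 stages named by embryonic day (E11.5, then E13.5, E15.5 and finally E18.5, called stage order below), with 1 sample per stage and no treatment. The series calls the material pancreatic epithelium, and the sources used here do not give how many embryos were pooled. Each deposited value is an average FPKM, a read level already divided by gene length and by a depth term for the library. The values showed that every average was made from 2 libraries counted in whole reads, and for most genes both libraries could be recovered from it.

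Glycolysis turns glucose into pyruvate in the cytosol, and lactate dehydrogenase interconverts pyruvate and lactate. Glucose enters most cells through facilitative transporters of the SLC2A family, of which glucose transporter 1 is the widely expressed form. Several steps are catalysed by isozymes from separate genes, and the adult mouse beta cell is known for its use of the transporter Slc2a2.

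Levels are given as FPKM after scaling the samples by the median ratio over 9884 genes, with the SD between both recovered libraries (n = 2) after the ± sign. Differences were taken on log2(FPKM + 1), a scale that makes the change of low genes look smaller. The labels do not state whether the libraries of a stage are separate embryos, and the SDs and p-values therefore cover the spread between them only, which may be technical. A gene was said to rise or fall when limma on the recovered libraries gave an adjusted p of 0.05 or less over all 13641 genes tested. A second rule, the rule of size, asked for a 2-fold difference between levels of which the higher had to reach 5 FPKM, and was read against 14841 measured genes (those with 1 FPKM or more in any stage). Of the members, 7 were recovered in every library. Eno1, Ldha and, outside E15.5, Aldoa had too many reads to be split, so they have levels but no test. Pgk1 in every stage, Gpi1 and Pfkl at E11.5 and Aldoa at E15.5 were split under the assumption that both libraries lay within 1.3-fold of each other, which bounds their SDs. The estimated reads were 1.37e+07 to 1.80e+07 a library.

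The material changed in makeup across the stages. The 8 erythroid markers summed to 9539 FPKM at E11.5 and to 225, 176 and 322 FPKM at the later stages, with all 8 past the rule of size between E11.5 and E13.5 and the embryonic globin Hbb-bh1 at 0 from E15.5 on. The 6 neural markers summed to 1137, 19.3, 9.94 and 43.7, and the 6 mesenchymal markers to 199, 45.5, 37.6 and 63.7. The 5 endothelial markers were below 1 FPKM in every stage. The 6 acinar markers summed to 6.30, 5869, 103614 and 47666, and the 7 endocrine markers to 258, 3598, 2928 and 30110. All 6 epithelial markers were above 5 FPKM in every stage and summed to 1114, 2693, 3302 and 3969. The 6 pancreatic progenitor markers summed to 59.8, 323, 298 and 315, and the 5 leukocyte markers to 36.9, 15.1, 178 and 69.6. Of the leukocyte sum C1qa, a complement gene of macrophages, made up 5.13, 13.3, 176 and 66.4 FPKM, while Ptprc, the pan-leukocyte marker, was at 0.14 FPKM or less in every stage. The part of these shifts in the results below was not tested, and in bulk RNA fewer cells of a type and less RNA per cell cannot be told apart.

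The 10 genes spanned more than 3 orders of magnitude in level. Eno1, Ldha and Aldoa together made up 82.1%, 87.0%, 86.0% and 88.6% of the members' summed FPKM in stage order. Pgk1 followed, then Gpi1, Pfkl and Slc2a1, and Hk1, Hk2 and Pfkp stayed below 5 FPKM in every stage. Hk1 and Pfkp reached 1 FPKM at E11.5 alone. Of the 7 members at 5 FPKM or more in every stage, 5 spanned less than 2-fold between their lowest and highest stage, where 58.5% of 5198 genes at such levels did. This count was 7 with the deposited FPKM unscaled (57.8% of 5186 genes), and at the same total FPKM in every sample it was 2, Aldoa and Ldha (39.6% of 4911 genes). The highest level was at E11.5 or E18.5 for 4 members each and at E15.5 for 2, and E13.5 held the lowest level of 5 members and the highest of 0. With every sample set to the same total FPKM, 9 were highest at E11.5 and 1 at E15.5, and the lowest levels were at E15.5 for 5, at E18.5 for 4 and at E13.5 for 1, so the order of the later stages depended on the scaling.

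**Figure D1:**
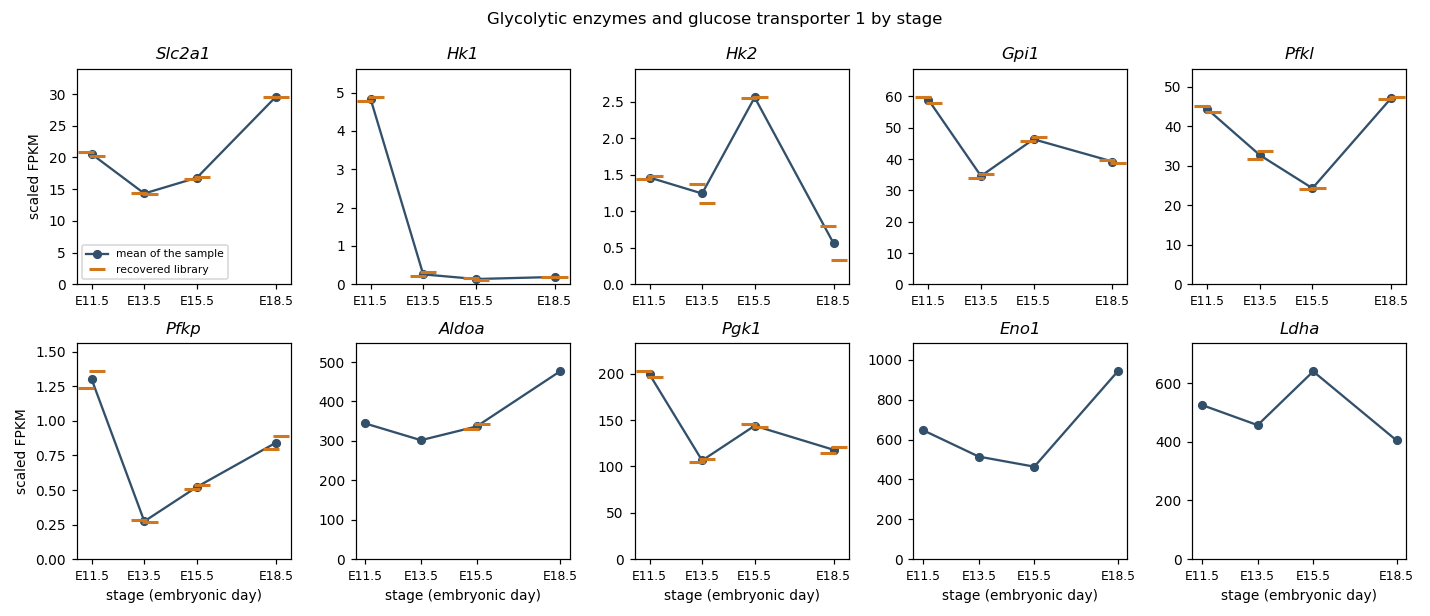
Scaled FPKM (y axis, a linear axis of its own for each gene, from 0) of the 10 genes at the 4 stages (x axis, embryonic day); points joined by lines are the sample's level and short bars are the recovered libraries, absent where a gene could not be split. Hk1 drops from 4.83 to 0.260 FPKM between E11.5 and E13.5, while Eno1, Ldha and Aldoa stay between 302 and 942 FPKM.

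Slc2a1, which encodes glucose transporter 1 (ENSMUSG00000028645, chromosome 4, 119108711 to 119137983, plus strand, mm10), was at 20.5 ± 0.448, 14.3 ± 0.0038, 16.8 ± 0.196 and 29.5 ± 0.0441 FPKM in stage order. It was lowest at E13.5 and highest at E18.5 (lowest at E15.5 and highest at E11.5 at the same total), and the libraries of different stages did not overlap. It fell by 0.49 on the log2 scale at E13.5 against E11.5 (SE 0.0323, limma adjusted p = 1.94e-05) and rose by 0.78 at E18.5 against E15.5 (SE 0.0323, limma adjusted p = 3.83e-06). The smaller rise at E15.5 against E13.5 (0.22, limma adjusted p = 0.00157) and the rise at E18.5 against E11.5 (0.51, limma adjusted p = 1.16e-05) held under the scaling used here and turned to -0.37 and -0.062 when every sample was set to the same total FPKM.

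The promoter window of Slc2a1 is shown because this gene and Ldha, both known in other tissues as targets of the hypoxia-inducible factors, differed in opposite directions between E15.5 and E18.5. The sequence holds the 250 bases before the RefSeq gene start at chr4:119108495-119108744 (GRCm38.p6, plus strand), and capitals mark ACGTG or GCGTG, the cores of the hypoxia response element, on either strand.
Slc2a1: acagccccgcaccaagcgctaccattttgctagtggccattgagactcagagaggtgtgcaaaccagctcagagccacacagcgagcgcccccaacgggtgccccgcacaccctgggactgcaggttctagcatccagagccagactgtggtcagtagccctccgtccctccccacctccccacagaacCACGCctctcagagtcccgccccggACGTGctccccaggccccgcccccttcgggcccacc
A single match to each core stood in the window. Among 32851 windows of the same length before mouse gene starts, 16.6% held ACGTG, 28.2% held GCGTG and 38.6% held either, and the members' windows were richer in G and C (median 62.8%) than all windows (median 52.4%). Of the members' 16 windows, 13 held either core. Some windows of Aldoa and of Eno1 overlap and hold the same matches, so these matches were counted more than once. By gene, 9 of the 10 members had either core in at least 1 window, Gpi1 being without, as did 41.5% of 27025 genes, which had fewer windows each (1.22 on average against 1.6). A match is a description of these letters and not of a bound site.

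Hexokinases trap glucose in the cell as glucose 6-phosphate. Hk1, the widely expressed form (ENSMUSG00000037012, chromosome 10, 62268855 to 62379908, minus strand), was at 4.83 ± 0.0851, 0.260 ± 0.0734, 0.139 ± 0.048 and 0.192 ± 0.0136 FPKM. The libraries held 746 and 747 reads at E11.5, 34 and 45 at the next stage, 19 and 10 at E15.5, and 20 and 22 at the last stage. E11.5 stood apart from the 3 later stages, which lay close together. Hk1 fell by 2.21 on the log2 scale at E13.5 against E11.5 (SE 0.0727, limma adjusted p = 9.37e-07), 18.6-fold in FPKM, and had the widest span of the members at 34.8-fold. Its E11.5 level lay just under the 5 FPKM that the rule of size asks, so that rule did not count it. The later steps did not pass (limma adjusted p = 0.133 and 0.45), though E15.5 against E13.5 was -0.24 at the same total (limma adjusted p = 0.0237). The erythroid, neural and mesenchymal markers above were high in the same sample in which Hk1 was high.

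The Hk1 gene has a pair of annotated starts, and both windows are shown because the gene had the largest difference of the members; the files do not tell which start was used. Window A lies at chr10:62379909-62380158 and window B, the downstream start, at chr10:62340422-62340671 (GRCm38.p6, minus strand, capitals as above).
Hk1 window A: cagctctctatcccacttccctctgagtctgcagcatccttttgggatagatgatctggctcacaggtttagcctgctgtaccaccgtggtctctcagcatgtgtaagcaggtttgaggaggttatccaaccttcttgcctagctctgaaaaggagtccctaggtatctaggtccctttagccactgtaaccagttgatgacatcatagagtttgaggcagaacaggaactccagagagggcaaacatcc
Hk1 window B: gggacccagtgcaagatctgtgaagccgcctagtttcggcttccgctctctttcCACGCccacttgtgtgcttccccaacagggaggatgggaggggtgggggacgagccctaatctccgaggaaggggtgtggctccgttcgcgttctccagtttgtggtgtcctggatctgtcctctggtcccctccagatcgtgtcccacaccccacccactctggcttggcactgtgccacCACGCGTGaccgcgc
Window A held neither core, and window B held 3 matches to GCGTG, of which a pair overlap as CACGCGTG.

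Hk2, the insulin-responsive form of muscle and fat (ENSMUSG00000000628, chromosome 6, 82725025 to 82774454, minus strand), was at 1.46 ± 0.0244, 1.24 ± 0.188, 2.56 ± 0.0133 and 0.562 ± 0.331 FPKM in stage order. It was highest at E15.5 and lowest at E18.5 under each scaling tried, but at the same total E15.5 (1.95 FPKM) lay close to E11.5 (1.89 FPKM). At E18.5 the libraries held 61 and 25 reads and differed most. It did not pass at E13.5 against E11.5 (-0.14, limma adjusted p = 0.426), and fell by 1.20 at E18.5 against E15.5 (SE 0.143, limma adjusted p = 0.000362). Its rise at E15.5 against E13.5 (0.67, limma adjusted p = 0.00747) was 0.26 with samples set to the same total, where it did not pass (limma adjusted p = 0.125).

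Gpi1, glucose-6-phosphate isomerase (ENSMUSG00000036427, chromosome 7, 34201330 to 34230336, minus strand), was at 58.9 ± 1.38, 34.6 ± 0.708, 46.3 ± 1.01 and 39.2 ± 0.555 FPKM in stage order. It was highest at E11.5 and lowest at E13.5 (at E18.5 with samples set to the same total), with no overlap between the libraries of any stages. It fell by 0.75 at E13.5 (SE 0.0344, limma adjusted p = 3.79e-06). Its fall of 0.23 at E18.5 against E15.5 (limma adjusted p = 0.000981) did not pass at the same total (limma adjusted p = 0.149), and its rise of 0.41 at E15.5 turned to -0.20 with samples set to the same total.

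Phosphofructokinase commits the sugar to glycolysis. Pfkl, the liver-type subunit (ENSMUSG00000020277, chromosome 10, 77986947 to 78010083, minus strand), was at 44.3 ± 1.14, 32.7 ± 1.54, 24.3 ± 0.247 and 47.2 ± 0.445 FPKM. It was lowest at E15.5 under each scaling tried, and highest at E18.5 in the scaling used and at E11.5 at the same total. It fell by 0.43 at E13.5 (SE 0.0407, limma adjusted p = 0.00011) and by 0.41 at E15.5 (SE 0.0407, limma adjusted p = 0.000273), and rose by 0.93 at E18.5 against E15.5 (SE 0.0407, limma adjusted p = 4.71e-06). E18.5 against E11.5 did not pass (0.09, limma adjusted p = 0.0921), and at the same total it was -0.49 (limma adjusted p = 3.37e-05). Of the 7 tested, Pfkl was the 1 member called as fallen at E15.5 against E13.5 under the scaling used here, and it was also so called at the same total (-1.02, limma adjusted p = 3.54e-06).

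Pfkp, the platelet-type subunit (ENSMUSG00000021196, chromosome 13, 6579768 to 6648777, minus strand), was at 1.301 ± 0.0829, 0.273 ± 0.0113, 0.522 ± 0.0179 and 0.842 ± 0.0646 FPKM. It was lowest at E13.5 and highest at E11.5 under each scaling tried. It fell by 0.85 at E13.5 (SE 0.0666, limma adjusted p = 4.3e-05) and rose by 0.27 at E18.5 against E15.5 (limma adjusted p = 0.00971). Its rise of 0.26 at E15.5 (limma adjusted p = 0.016) was lost without 1 library of either stage (limma adjusted p = 0.0563 and 0.0697 without an E13.5 library, and 0.0543 without 1 of the E15.5 libraries) and did not pass at the same total (limma adjusted p = 0.318).

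Aldoa, the ubiquitous aldolase that splits fructose 1,6-bisphosphate (ENSMUSG00000030695, chromosome 7, 126795234 to 126800751, minus strand), was at 344, 302, 336 ± 7.52 and 476 FPKM in stage order. It was highest at E18.5 and lowest at E13.5 (highest at E11.5 and lowest at E15.5 at the same total), with an SD at E15.5 alone. A second gene ID that also carries the symbol Aldoa (ENSMUSG00000114515) was at 2.22, 2.26, 0.949 and 1.52 FPKM and is not counted here. Pgk1, phosphoglycerate kinase, which makes the first ATP of the pathway (ENSMUSG00000062070, chromosome X, 106187100 to 106203699, plus strand), was at 199 ± 4.51, 106 ± 1.73, 144 ± 2.28 and 118 ± 4.18 FPKM. It was highest at E11.5 under each scaling tried. It fell by 0.90 at E13.5 (SE 0.0362, limma adjusted p = 2.21e-06) and by 0.28 at E18.5 against E15.5 (limma adjusted p = 0.000499), while its rise of 0.43 at E15.5 turned to -0.19 at the same total. Of the 50-base windows of Pgk1, 53.9% also occur in other genes, chiefly processed pseudogenes, and these pseudogenes summed to under 1.2 FPKM in every stage. The sources used here do not say how shared reads were counted, and their effect on the Pgk1 level was not tested. The shared part was 6.43% for Aldoa and 9.03% for Ldha.

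Eno1, enolase 1, which forms phosphoenolpyruvate (ENSMUSG00000063524, chromosome 4, 150236721 to 150248879, plus strand), was at 647, 515, 464 and 942 FPKM in stage order. It was lowest at E15.5 under each scaling tried, and highest at E18.5 (at E11.5 at the same total). The 2.03-fold difference between E18.5 and E15.5 was the 1 difference among the members past the rule of size, and in the deposited values without scaling it was not past it. Of its 50-base windows 26.0% also occur in other genes, among them the pseudogene Gm4735, which was at 39.1, 25.5, 22.6 and 46.8 FPKM and so was ordered over the stages as Eno1 was.

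Ldha, the A subunit of lactate dehydrogenase (ENSMUSG00000063229, chromosome 7, 46841475 to 46855627, plus strand), was at 526, 457, 640.4 and 405 FPKM in stage order. It was lowest at E18.5 under each scaling tried, and highest at E15.5 (at E11.5 at the same total). Between E15.5 and E18.5 the Ldha level was lower and the Eno1 level higher, and neither could be tested. The level of Ldha at E18.5 was 1.58-fold lower than at E15.5, and its difference at E15.5 against E13.5 (0.49) turned to -0.14 at the same total. The first of its 2 windows, at chr7:46845554-46845803 (GRCm38.p6, plus strand), is shown with capitals as above.
Ldha: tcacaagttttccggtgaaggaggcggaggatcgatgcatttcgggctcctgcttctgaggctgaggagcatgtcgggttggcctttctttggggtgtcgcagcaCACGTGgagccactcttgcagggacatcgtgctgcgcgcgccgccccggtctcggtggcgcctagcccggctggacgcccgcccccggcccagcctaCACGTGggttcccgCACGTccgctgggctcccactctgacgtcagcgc
The window held 5 ACGTG matches in total, since the palindrome CACGTG occurs at a pair of places and is read on both strands, with 1 further match. CACGTG was in 6.02% of all windows. The second Ldha window, at chr7:46846832-46847081, is not shown and held 1 match to GCGTG and 0 to ACGTG.

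Comparing the stages as groups, all 10 members had a lower level at E13.5 than at E11.5 in the scaling used and in both alternatives. In the scaling used, 51.9% of all measured genes were lower, and this share was not computed for the alternatives. The 7 tested had 0 that rose and 6 that fell by limma (0 and 6 at an unadjusted p of 0.05), with 31.9% of 13641 genes that rose and 37.2% that fell. Members' median log2 difference was -0.46 and that of all measured genes was -0.03. By the rule of size 0 were higher and 0 lower, against 6.6% and 6.44% of measured genes. At E15.5 against E13.5, limma called 5 that rose and 1 that fell, with 29.5% and 27.3% of all genes called, but at the same total 0 rose and 5 fell, with 8.86% and 61.4% of all genes called. The rule of size counted 0 higher and 0 lower there (4.29% and 2.06% of measured genes).

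At E18.5 against E15.5, 3 members rose (Pfkl, Slc2a1 and Pfkp) and 3 fell (Pgk1, Gpi1 and Hk2), with 38.1% and 31.1% of all genes called, while at the same total 3 rose and 2 fell, with 44.6% and 23.6% of all genes called. The rule of size counted Eno1 as higher and 0 as lower (7.3% and 6.26%). At E18.5 against E11.5, 1 rose (Slc2a1) and 5 fell (Hk1, Pgk1, Hk2, Gpi1 and Pfkp) by limma, with 37.3% and 38.3% of all genes called, and 0 were higher or lower by the rule of size (11.2% and 8.52%). At the same total 0 rose and 6 fell, with 22.4% and 59.3% of all genes called. Comparisons that share a stage share its libraries. The same-total scaling moved the median of all genes by -0.11, -0.41, 0.11 and -0.46 in the order of the comparisons above, and the deposited totals were 304202, 348045, 537032 and 445642 FPKM in stage order.

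**Figure D2:**
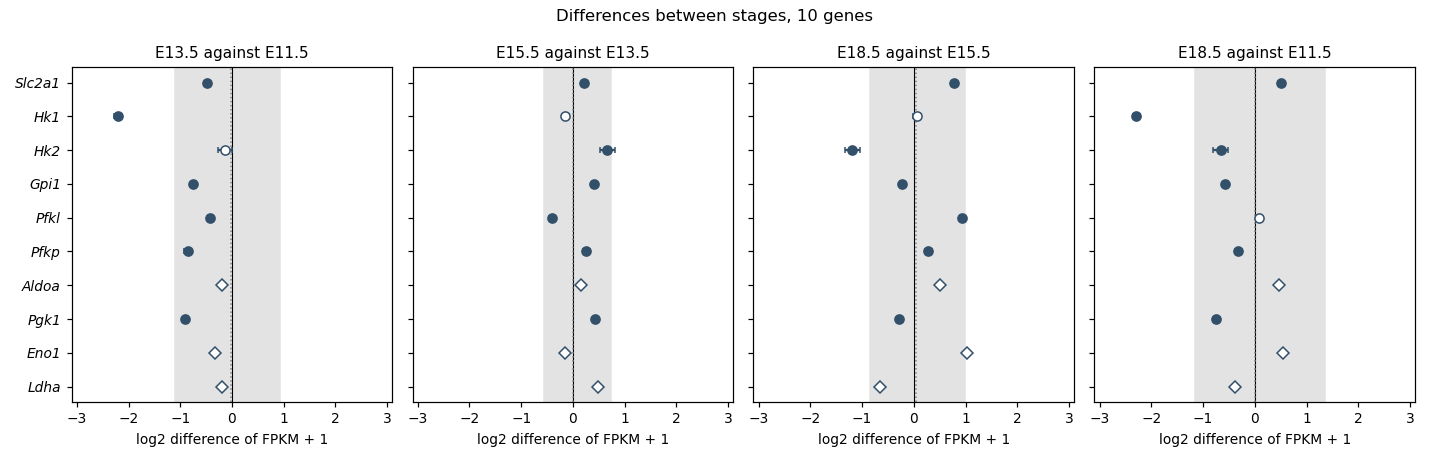
Log2 difference of FPKM + 1 (x axis) of each of the 10 genes in the 4 stage comparisons (panels), with the SE as a bar where limma was run. Filled circles passed limma, open circles did not, open diamonds were not tested, and the grey band and dotted line are the central 80% and the median of all measured genes. All 10 genes lie below 0 at E13.5 against E11.5, and Slc2a1 and Pfkl are at 0.78 and 0.93 at E18.5 against E15.5; Gpi1, Pgk1, Slc2a1, Aldoa and Ldha change sign at E15.5 against E13.5, and Slc2a1, Aldoa, Eno1 and Pfkl at E18.5 against E11.5, when samples are set to the same total.

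FPKM is per length, so isozymes of one step were set side by side, and their shares within a sample do not depend on the scaling of samples. The length used covers all annotated exons of a gene, 13401 bases for Pfkp and 6675 for Pfkl. Where it exceeds the transcripts present, a share comes out too low. The part of 50-base windows shared with other genes also differed, at 26.0% for Eno1 and 0% for Eno3. Shares are therefore approximate between genes. Beside Hk1 and Hk2, Hkdc1, a hexokinase family member, was at 0.607 ± 0.0736, 6.98 ± 0.301, 8.24 ± 0.115 and 2.93 ± 0.69 FPKM in stage order. It was thus below both at E11.5 and above both at the later stages. Hkdc1 rose by 2.31 on the log2 scale at E13.5 against E11.5 (limma adjusted p = 5.74e-06) and fell by 1.24 at E18.5 against E15.5 (limma adjusted p = 0.000118).

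Ldha was the larger lactate dehydrogenase in every sample, with 55.8%, 94.1%, 96.7% and 85.1% of the step. Ldhb, the B subunit that is abundant in heart, was at 416 ± 0.168, 28.8 ± 0.187, 21.9 ± 0.315 and 71.0 ± 4.27 FPKM and fell by 3.81 on the log2 scale at E13.5 against E11.5 (limma adjusted p = 1.96e-08). At the same step between E15.5 and E18.5, Ldhb rose (1.65, limma adjusted p = 7.78e-07) where the Ldha level was lower. Eno1 held 91.4%, 97.7%, 97.9% and 98.8% of the enolases, and the muscle form Eno3 was at 53.5 ± 1.48 FPKM at E11.5 and 7.34, 6.03 and 5.21 afterwards. Aldoa held 98.2%, 97.4%, 97.2% and 82.8% of the aldolases, and Aldoc, the brain form, was at 2.98 ± 0.337, 6.63 ± 0.482, 9.44 ± 0.129 and 98.1 ± 0.24 FPKM. Pfkl held 80.6% to 86.9% of phosphofructokinase in every stage, with Pfkm the next and Pfkp under 2.4%. Pgk2 was listed at 0 in every stage.

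**Figure D3:**
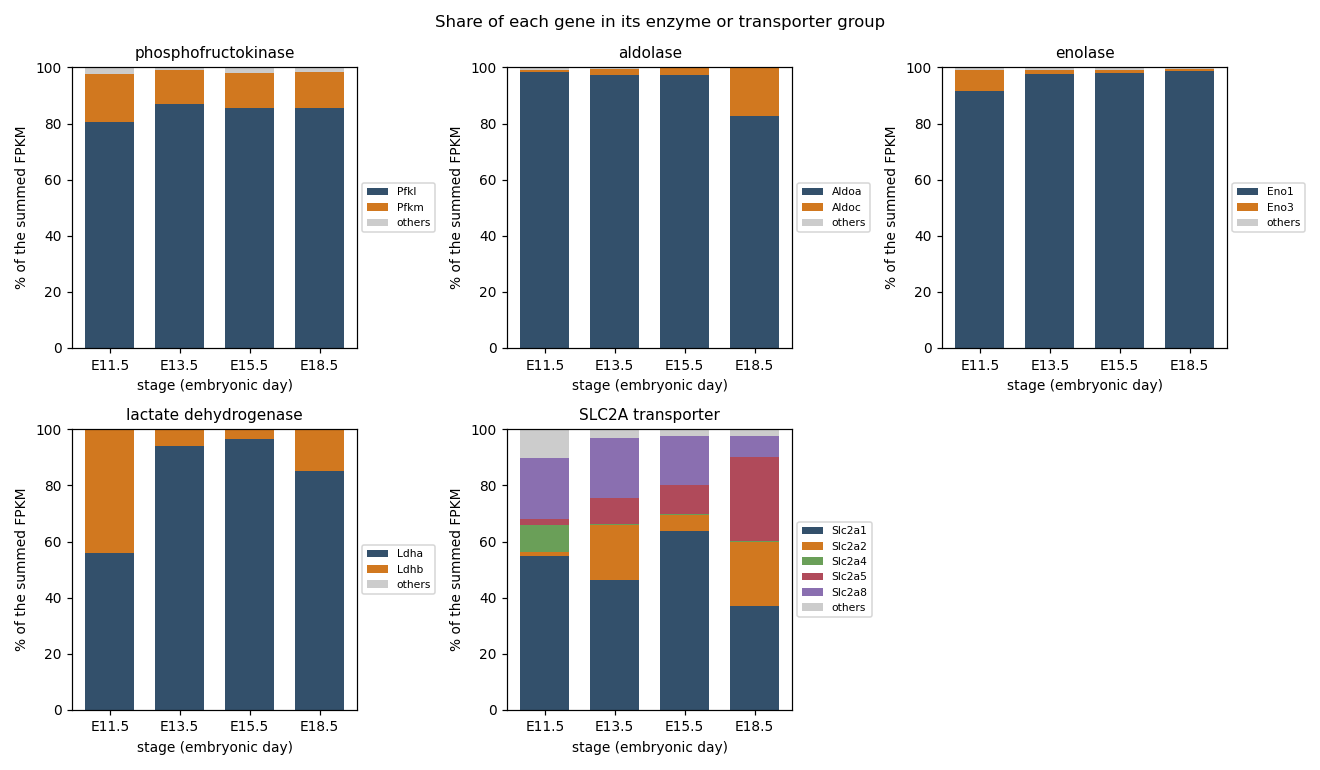
Percent of the summed FPKM of an enzyme or transporter group (y axis) held by each gene at each stage (x axis), for 5 groups. Ldhb goes from 44.2% to 5.93% of lactate dehydrogenase between E11.5 and E13.5, and Slc2a1 holds 63.6% of the transporters at E15.5 and 36.9% at E18.5.

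Among the SLC2A transporters, Slc2a1 made up 54.8% ± 0.894, 46.3% ± 0.169, 63.6% ± 0.482 and 36.9% ± 0.527. It was the largest in every stage. Slc2a8 was the next at E11.5, E13.5 and E15.5, and held 21.6%, 21.2%, 17.3% and 7.70% of the group in stage order. At E18.5 Slc2a5, the fructose transporter, reached 23.9 ± 0.57 FPKM (29.8% of the group) and Slc2a2, the transporter of the beta cell, 18.4 ± 0.291 FPKM (23.0%). Slc2a2 was at 0.479, 6.08, 1.56 and 18.4 FPKM, and it fell at E15.5 against E13.5 (-1.47, limma adjusted p = 7.39e-06) and rose at E18.5 against E15.5 (2.92, limma adjusted p = 4.14e-07). Slc2a4, the insulin-responsive transporter, was at 3.64 ± 0.0741 FPKM at E11.5 and at 0.303 or less afterwards.

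**Figure D4:**
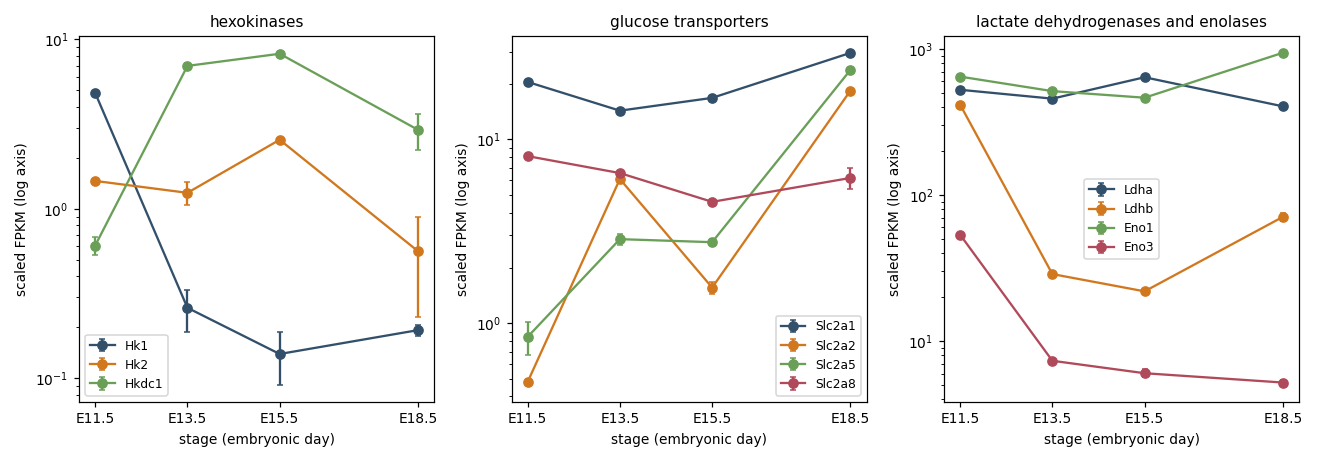
Scaled FPKM (y axis, log scale) against embryonic day (x axis) for 3 hexokinase genes, 4 SLC2A transporters, and lactate dehydrogenases with enolases. SD bars are shown where the libraries were recovered (n = 2). Hk1 and Hkdc1 cross between E11.5 and E13.5, Ldhb drops from 416 to 28.8 FPKM between E11.5 and E13.5, and Slc2a5 and Slc2a2 come near Slc2a1 at E18.5, at 23.9 and 18.4 against 29.5 FPKM.

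The other glycolysis genes, a list of 26 of which 21 were measured, were counted in the same way. By limma 5 of 17 tested rose and 10 fell at E13.5 against E11.5, where 31.9% and 37.2% of all genes did. At E15.5 against E13.5, 3 rose and 8 fell (29.5% and 27.3% of all genes), and at E18.5 against E15.5, 10 rose and 4 fell (38.1% and 31.1%). At E18.5 against E11.5, 4 rose and 9 fell (37.3% and 38.3%). At the same total the counts were 4 and 10 (27.7% and 44.6% of all genes), 2 and 10 (8.86% and 61.4%), 10 and 3 (44.6% and 23.6%), and 4 and 12 (22.4% and 59.3%) in the same order. Pkm, pyruvate kinase, was the most abundant of them at E11.5, at 581, 378, 182 and 205 FPKM, 2.08-fold lower at E15.5 than at E13.5 and so past the rule of size. Tpi1, triosephosphate isomerase, was at 327, 364, 522 and 454 FPKM. Both had too many reads to be split. Of the 50-base windows of Pkm, 25.8% also occur in other genes, among them the pseudogene Gm6560. Gm6560 was at 24.6 FPKM at E11.5 and was ordered over the stages as Pkm was. How far shared reads enter the Pkm levels and their 2.08-fold difference was not tested. Gapdh was listed at 4.58, 12.3, 2.81 and 1.74 FPKM, with 24.7% of its 50-base windows shared with 218 genes, and its values are given with that limit only.

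Over the 4 samples, the log2(FPKM + 1) profile nearest to that of Slc2a1 was that of Ankrd37, a known hypoxia-responsive gene. Its Euclidean distance was 0.0481 between profiles centred over the 4 stages. Ankrd37 was at 11.9 ± 1.24, 8.04 ± 1.14, 9.66 ± 1.31 and 17.9 ± 2.93 FPKM. Map1lc3a (0.111), Ccdc28b (0.126), Trp53i13 (0.133) and Rit1 (0.19) followed among 5634 protein-coding genes. The distances leave out the spread between libraries, and whether their order would hold under it was not tested. Nearest to the median profile of the members were Nmnat1 (0.13), Eapp (0.134), B3gat3 (0.137), Fbxl6 (0.139) and Tfpt (0.143).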

How the data were processed

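RNA was extracted with TRI reagent from fetal pancreas, per the labels' protocols. The submitters' processing notes name HISAT2 2.0.5 and mm10. For each stage the authors deposited FPKM per gene ID, named as averages per the file headers. Their counter and annotation were not given in the sources used here. Symbols and union exon lengths came from GENCODE M21, in which 54495 IDs had a symbol. FPKM times exon length proved to be the sum of whole reads of 2 libraries per stage, and 95.5% to 95.8% of genes above 0 were split, within 1.1 of the last printed place and with at most 0.05 chance pairs. Abundant genes were split only into libraries within 1.3-fold of each other, which bounds the SD of Pgk1, of Gpi1 and Pfkl at E11.5 and of Aldoa at E15.5. The library denominators were not plain read totals. Samples were scaled by median-of-ratios factors (0.988, 1.03, 1.03 and 0.962). Genes split in all 8 libraries and measured (13641) were tested with limma 3.58.1 in R 4.3.3 on log2(FPKM + 1), with a trend of variance on mean level and p-values adjusted by Benjamini-Hochberg. This test was chosen after the data were examined, since the labels give 1 sample per stage. The scripts were tested on simulated data. The members and lists were chosen with earlier results of these data known. Named genes were all members, every isozyme at 5% or more of its step, of each list the 2 highest genes and up to 4 that met the rule of size and reached 10 FPKM, and the 5 nearest profiles. Shares of the hexokinase step are not reported here. Gapdh, Pgk2, Gm4735, Gm6560, Hkdc1 and Slc16a3 were named after their values were seen. Alternatives were the scaling, the pseudocount, the size, minimum and filter of the rule, and leaving out each library. Promoter sequences came from RefSeq (GRCm38.p6) and all 10 members matched. Windows of 50 bases were compared between GENCODE transcripts.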

Additional observations from a re-analysis of the deposited data

How the results depend on the processing

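The count of members past the rule of size was sensitive to its settings, since few differences came near 2-fold. The share of all measured genes past each altered rule was not computed. The altered counts therefore show the effect of the settings only. At E13.5 against E11.5 the 0 lower became 2 at the same total FPKM, with a 1 FPKM minimum, with no filter on low values and with a 1.5-fold rule. At E15.5 against E13.5 the 0 higher became 1 with a 1 FPKM minimum and with no filter, and the 0 lower became 1 at the same total. At E18.5 against E15.5 the 1 higher became 0 unscaled, 2 at the same total and 3 at 1.5-fold, and the 0 lower became 1 with a 1 FPKM minimum, with no filter and at 1.5-fold. At E18.5 against E11.5 the 0 lower became 3 at the same total and 2 with a 1 FPKM minimum, with no filter and at 1.5-fold. At the same total, limma called 0 that rose (5 as reported) and 5 that fell (1 as reported) at E15.5 against E13.5, and 0 that rose (1 as reported) at E18.5 against E11.5. The log2 differences that changed sign there were Gpi1 (-0.20), Pgk1 (-0.19), Slc2a1 (-0.37), Aldoa (-0.47) and Ldha (-0.14) at E15.5 against E13.5, and Slc2a1 (-0.062), Pfkl (-0.49), Aldoa (-0.12) and Eno1 (-0.047) at E18.5 against E11.5; of these, Aldoa, Ldha and Eno1 had no test, and Pfkl had not passed. Leaving out each library in turn, members that rose at E15.5 against E13.5 ranged from 4 to 5, and the other limma counts did not move. No paired analysis was possible because the labels give 1 sample per stage and the recovered libraries carry no number. The scaling, low reads for Hk1, Hk2 and Pfkp, and the missing split of Eno1, Ldha and Aldoa limit what depth can show.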

Other observations

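Gluconeogenesis runs opposite to glycolysis. Of its 7 measured genes, the rule of size counted 5 as higher at E18.5 than at E11.5 and 0 as lower. Of all measured genes, 11.2% and 8.52% were. At the same total the rule counted 4 and 0, and the shares of all genes past it there were not computed. G6pc2, the islet glucose-6-phosphatase, was at 0.112 ± 0.00187, 3.17 ± 0.0578, 5.71 ± 0.341 and 73.1 ± 0.018 FPKM in stage order. Fbp1, which reverses the phosphofructokinase step, was at 0.0817, 2.92, 5.74 and 15.1 FPKM. Bsg, a chaperone of lactate transporters, was at 474, 1012, 1225 and 1822 FPKM, and Slc16a3, a lactate exporter chosen after its values were seen, was at 8.12, 0.715, 0.152 and 3.69 FPKM.

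Genes known to respond to hypoxia or glucose were highest at different stages. Car9, a carbonic anhydrase, was at 0.899 ± 0.0997, 23.2 ± 1.91, 88.0 ± 4.16 and 63.4 ± 0.0418 FPKM, and Ier3 at 13.9, 10.8, 40.6 and 109 FPKM. Txnip, which restrains glucose uptake, was at 4.09 ± 0.256, 39.2 ± 0.244, 38.0 ± 1.23 and 69.2 ± 1.06 FPKM, and Mlxipl, a glucose-responsive transcription factor, at 1.37, 9.12, 8.08 and 20.2 FPKM. Myc was at 10.1, 57.0, 50.3 and 17.9 FPKM and Mycn at 24.7, 12.6, 2.48 and 9.05 FPKM, so their highest stages differed.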
